A study of Drosophila melanogaster with 3 samples.

Results

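Of the 8721 CoRest peaks that passed the authors' reproducibility threshold in Drosophila melanogaster embryos, 2555 (29.3%) were upstream peaks at single promoters. Such a peak had its summit 1 to 500 bp upstream of the nearest protein-coding start site, and that start site had no protein-coding start site on the opposite strand, head to head, within 500 bp. The same rule applied to the strongest 8721 peaks of each replicate gave 2613, 2557 and 2431 peaks, or 29.1% ± 1.07 (SD, n = 3). The remaining thresholded peaks lay at divergent promoters, which have such an opposite start site (1263 peaks), at or downstream of a single start site within 500 bp (326), from 501 to 2000 bp away (1612), or farther (2965).

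The material was 3 biological replicates, all of 1 group, and no other condition was given. Each was a pool of male and female whole embryos, 0 to 24 hours old, of a transgenic fly line that stably carries CoRest-eGFP, the protein with green fluorescent protein (GFP) at its C terminus. Chromatin sonicated to 200 to 800 bp was precipitated and sequenced (ChIP-seq). The antibody was directed at GFP according to the samples' descriptions, while their antibody field names only CoRest, the target. A whole embryo mixes many cell types and ages, so a peak does not show in which cells the tagged protein lay, and with an antibody against GFP the untagged protein is not measured. The files used hold no read counts, so the sequencing depth is not known, and an interval on a share covers only counting error.

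CoRest is a corepressor scaffold that joins a histone H3K4 demethylase and a histone deacetylase, and in flies it is known for the silencing of neuronal genes outside neurons and for roles in the germline. Drosophila promoters are often sorted by their sequence elements. Promoters of broadly active genes tend to carry the DRE, which DREF binds, the site of M1BP, or some of the Ohler motifs. Regulated promoters tend to carry an initiator at the start site, a TATA box, a downstream promoter element (DPE) or GAGA repeats. The GAGA factor (gene Trl) binds these repeats.

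The sequences below show some of the elements, each at the best-ranked upstream peak that holds it outside 1 chromosome arm that is not shown. For the DRE the best-ranked one with its summit within 100 bp of the start site was added. They were read 5′ to 3′ on the strand of the gene from the RefSeq sequence of the Release 6 (dm6) assembly. Each runs from 100 bp before the summit to 100 bp after it, or for the TATA box from 60 bp before the start site, and stops at the base before the start site, or at the end of the marked element where that lies later. Capitals mark the element. CG11151 holds a DRE (TATCGATA) at -280 bp from its start site, and eEF1gamma, which encodes a translation elongation factor subunit, holds one at -41 bp, the more usual place. WASp, an actin regulator, holds an M1BP site (GGTCACACT) 5 bp past its start site, C1GalTA, a glycosyltransferase, an Ohler 6 element (GTATNTTT, with N a weak base) on the opposite strand, and E(spl)m3-HLH, a Notch target, a TATA box (TATAAA) at -25 bp. CG14100 and Ugalt had the strongest and the third strongest upstream peak of all, and the capitals there mark a 7-base sequence (GGGCGTA, read on either strand) that both share.
eEF1gamma, chr3R:29220036-29220171, plus strand: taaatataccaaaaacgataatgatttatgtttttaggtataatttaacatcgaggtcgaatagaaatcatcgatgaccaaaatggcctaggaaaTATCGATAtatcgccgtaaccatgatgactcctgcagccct
CG11151, chrX:13739437-13739637, plus strand: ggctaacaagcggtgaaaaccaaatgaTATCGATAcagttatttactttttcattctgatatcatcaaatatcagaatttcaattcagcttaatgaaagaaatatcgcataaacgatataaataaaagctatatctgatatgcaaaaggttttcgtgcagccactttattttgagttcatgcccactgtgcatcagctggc
WASp, chr3R:28832011-28832189, minus strand: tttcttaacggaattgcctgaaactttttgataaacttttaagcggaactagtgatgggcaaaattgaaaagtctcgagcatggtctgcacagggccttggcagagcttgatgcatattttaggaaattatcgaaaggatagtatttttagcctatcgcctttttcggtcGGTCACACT
C1GalTA, chr2L:8951281-8951481, minus strand: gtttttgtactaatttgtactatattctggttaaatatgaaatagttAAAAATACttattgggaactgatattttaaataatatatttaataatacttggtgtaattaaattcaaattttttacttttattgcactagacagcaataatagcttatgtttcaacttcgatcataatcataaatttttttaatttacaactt
E(spl)m3-HLH, chr3R:26021763-26021822, plus strand: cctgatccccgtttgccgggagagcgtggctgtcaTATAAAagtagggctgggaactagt
CG14100, chr3L:19590525-19590713, minus strand: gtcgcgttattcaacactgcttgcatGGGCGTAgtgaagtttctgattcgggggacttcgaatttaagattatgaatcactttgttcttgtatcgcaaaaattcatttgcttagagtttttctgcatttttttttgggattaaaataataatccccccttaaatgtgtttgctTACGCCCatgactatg
Ugalt, chrX:2703853-2703991, minus strand: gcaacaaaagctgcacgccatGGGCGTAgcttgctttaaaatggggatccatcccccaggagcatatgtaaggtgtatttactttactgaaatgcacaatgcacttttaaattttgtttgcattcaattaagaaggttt

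The pooled list ranks peaks by the authors' signal, with rank 1 the strongest. Among the 500 strongest peaks of all kinds, 185 (37.0%) were upstream peaks at single promoters. Their median pooled rank was 4119, against 3269 for peaks at divergent promoters and 5182.5 for those downstream of single start sites. A peak counted as found in a replicate when that replicate had a summit within 100 bp. By this measure 2225 upstream peaks (87.1%, exact 95% interval 85.7 to 88.4%) were found in all 3 replicates, 288 in 2, 40 in 1 and 2 in none. The thresholded list was made from the same replicates, so this is a description of the list. Divergent and downstream peaks gave 87.8% and 85.6%, close to it. The summits of a peak differed between replicates by a median SD of 21.1 bp.

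The strongest upstream peak lay 89 bp upstream of CG14100 (3L, 19590373 to 19590875) and ranked 1 in every replicate. That of mRpL41, which encodes a mitochondrial ribosomal protein, followed 136 bp upstream of its start site with rank 3 in every replicate. Ugalt, a UDP-galactose transporter gene, had its summit at 39 bp and ranks 8, 6 and 6. These 3 peaks hardly moved between replicates. The Polycomb gene ph-p ranked 9, 11 and 19, with its summit 460 bp upstream of the nearest start site and inside the gene as annotated from another start site. The wing vein gene px ranked 6, 26 and 32. The RNA-binding protein gene msi (51, 25 and 26), the kinase gene gish (29, 32 and 30), the formin gene Fhos (32, 49 and 43) and the glycolytic enzyme gene Gapdh2 (48, 30 and 51) were also among the 20 strongest that all replicates held. No member of these 20 ranked below 60 in any replicate, and the genes have varied roles, from the transcription factor gene Atf3 to the ecdysone-responsive transporter gene E23. Their summits lay 39 to 460 bp upstream.

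**Figure D1:**
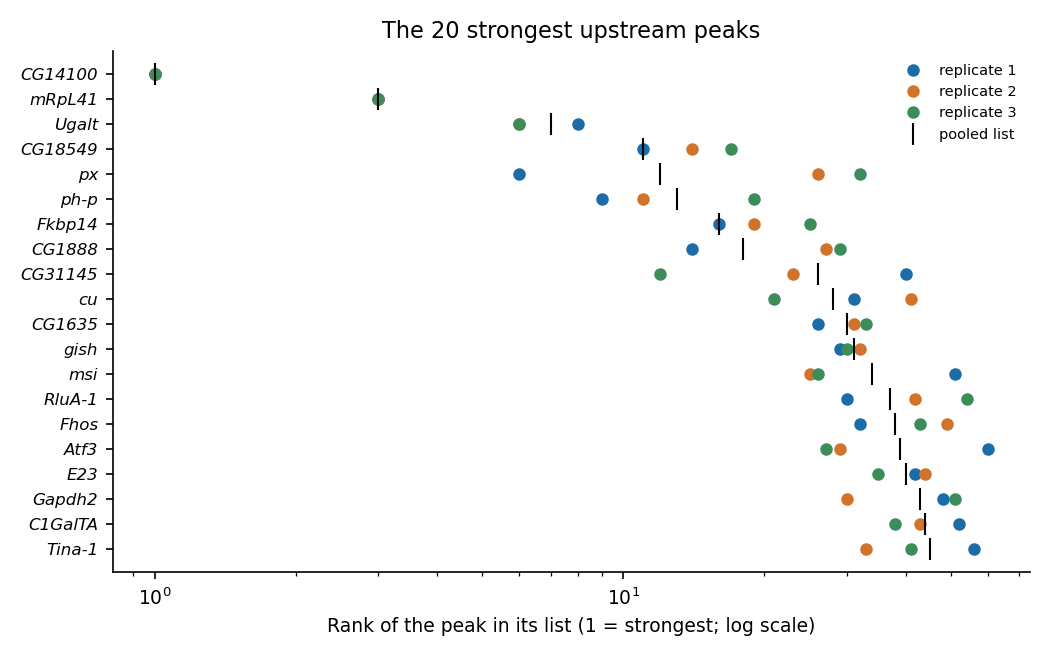
Rank of the 20 strongest upstream peaks found in all 3 replicates (x axis, log scale, 1 = strongest), 1 row per gene. Coloured points are replicates, which overlap where ranks are equal, and black ticks the pooled list. CG14100 has rank 1 and mRpL41 rank 3 throughout, and no peak has a rank above 60 in any replicate.

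Ranks further down varied more. Among the 1000 best pooled ranks, the spread over replicates was widest for CG43116 (ranks 374, 1856 and 1734), Sema5c, a semaphorin gene (668, 1897 and 1418), and CG13531 (862, 1916 and 945). E(spl)m7-HLH, a Notch target, was likewise uneven at 170, 960 and 1264. In these 4 peaks replicate 1 had the best rank. Replicate shares are therefore given below for each pattern.

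The summits sat close to the start site, within the limits that the rule sets. The quartiles of the distance were 87, 164 and 267 bp, and the replicate medians 161, 150 and 178 bp (163.0 ± 14.1, SD, n = 3). The fullest 50-bp interval, 51 to 100 bp, held 427 peaks and the farthest, 451 to 500 bp, 81. The nearest interval, 1 to 50 bp, was the most uneven between replicates, with 349, 420 and 248 peaks. CG18081 and fax lay nearest, at 1 bp, and the nuclear protein gene east and the lysozyme gene LysB farthest, at 500 bp. Just outside the limits, the summit at Psf2, a replication factor gene (rank 4266), fell on the start site itself, and that at the Notch target E(spl)m2-BFM (rank 734) at 502 bp. Of pairs of head-to-head start sites, Meics (501 bp apart, rank 2248) fell inside the rule and the RNA polymerase II subunit gene Polr2I (500 bp, rank 2174) outside it.

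**Figure D2:**
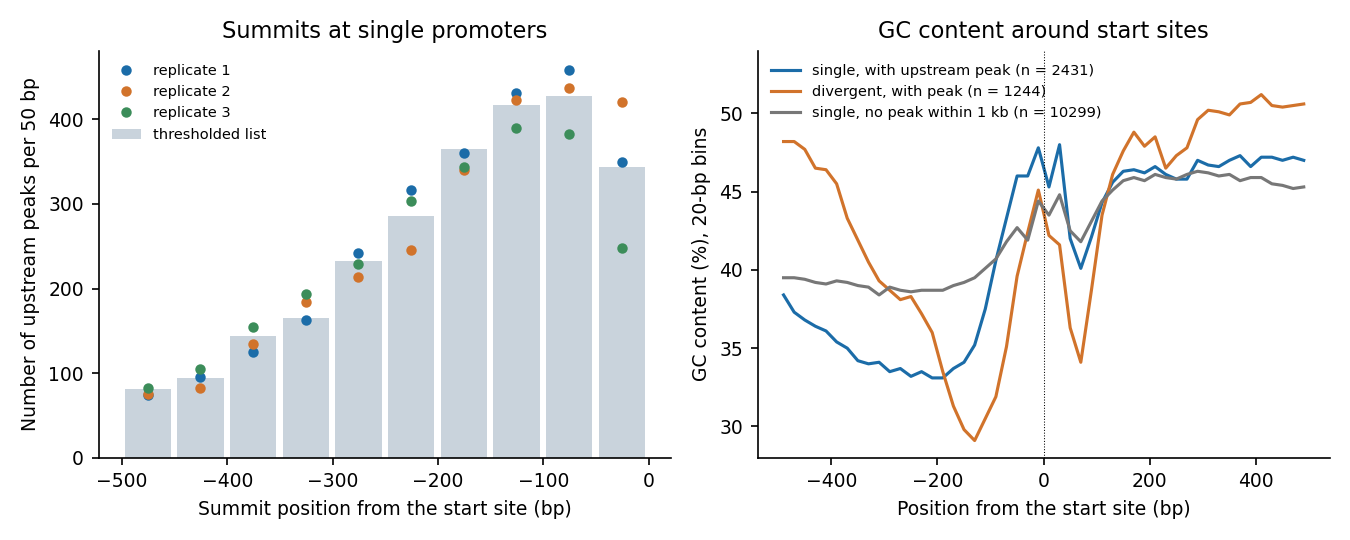
Left, the number of upstream peaks in 50-bp intervals by summit position (bp from the start site), with bars for the thresholded list and points for the replicates: most lie within 200 bp, with 427 at 51 to 100 bp. Right, GC content in 20-bp bins around start sites: promoters with an upstream peak have their lowest value, 33.1%, at -190 bp, divergent promoters with a peak 29.1% at -130 bp, and single start sites with no peak within 1 kb 38.4% at -310 bp.

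The bases around the summits were AT-rich on the far side of the start site. Within 100 bp of the summits the GC content was 35.4, 36.2 and 34.6% in the replicates (35.4% ± 0.803, SD, n = 3). Windows of the same length at the members' median distance of 164 bp from the 10299 single start sites with no thresholded summit within 1 kb had 39.4%. The GC content was 35.4% at upstream against 33.9% at divergent peaks, a difference of 1.52 points ± 0.375, and 39.6% at downstream peaks, a difference of -4.14 points ± 0.262 (SD, n = 3). Each difference had the same sign in all 3 replicates. With 3 replicates the exact 2-sided sign-flip permutation test cannot give a p below 0.25, the value here, so neither these nor any other of the 72 class comparisons could pass 0.05, before or after adjustment. Along the gene, GC was 32.9% from 100 to 51 bp before the summit and 47.1% from 350 to 399 bp after it.

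The DRE, the M1BP site and the BEAF-32 site (CGATA, counted outside a DRE, in which it is contained) were concentrated in the peaks nearest to the start site. Motifs were sought on both strands within 100 bp of the summit, and shares are compared with windows at the same distance from start sites without a peak. Of the 770 peaks at 1 to 100 bp, 18.2% held a DRE, against 3.02% of the no-peak windows. The share was 6.78% against 1.84% at 101 to 200 bp, 2.70% against 0.845% at 201 to 300 bp, and 0.971% against 0.689% at 301 to 400 bp. The replicates gave 17.0, 16.9 and 16.5% in the nearest interval and 2.33, 2.39 and 1.88% at 201 to 300 bp, groups that do not overlap.

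The M1BP site had an even steeper profile. It was present at 11.7% of peaks within 100 bp, against 1.70% of no-peak windows, at 2.81% against 0.301% in the next interval, and at none of the 175 peaks beyond 400 bp. The replicates gave 12.4, 11.6 and 12.4% in the nearest interval and none held the site beyond 400 bp. BEAF-32 sites outside a DRE were common everywhere: 51.3% against 28.5% in the nearest interval, but 20.8% against 22.8% at 201 to 300 bp. Ohler 6 did not fall steadily with distance, at 13.2, 11.8, 9.25, 7.12 and 14.3% from the nearest to the farthest interval. No-peak windows gave 5.95, 6.26, 5.95, 6.10 and 5.57%. Over all upstream peaks, 8.30% held a DRE, 4.77% an M1BP site and 7.51% an Ohler 7 element (CANCNCTA, with the first N a keto base). In no-peak windows at 164 bp these shares were 1.23, 0.243 and 2.47%, and over all 14910 single start sites 1.94, 0.711 and 2.90%.

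**Figure D3:**
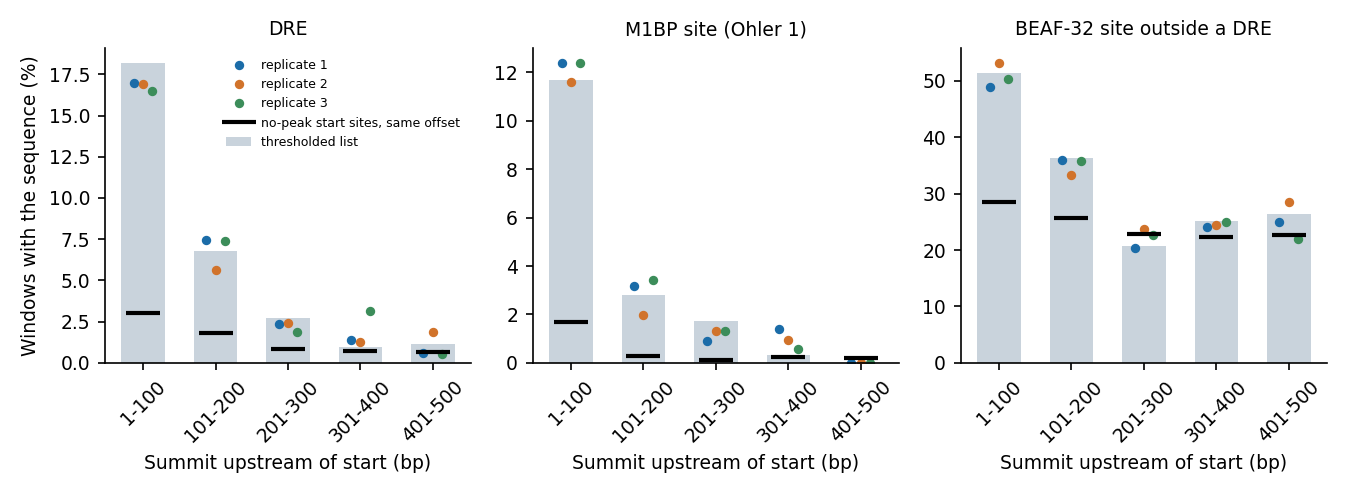
Share of upstream peaks with a DRE, an M1BP site or a BEAF-32 site outside a DRE within 100 bp of the summit (y axes, %), by distance of the summit from the start site (bp). Bars are the thresholded list, points the replicates, and black dashes windows at the same distance from start sites with no peak. The DRE share goes from 18.2% in the nearest interval to 1.14% in the farthest.

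The 238 DRE matches sat a median of 53 bp upstream of the start site, and 213 of them lay upstream of it. Of these matches, 30.7% lay within 25 bp of the summit, against 26.3% if spread evenly over the window. Within 100 bp of the start site the DRE share was above that of no-peak windows at a like distance in each of 4 GC classes. It was 16.4% against 3.3% in windows under 30% GC and 14.4% against 1.32% in those of at least 40%. At 101 to 200 bp it was 4.53% against 3.06% and 6.94% against 0.726% in these classes. Peaks with a DRE had a median pooled rank of 5288 and a median distance of 73 bp, and those without one 4008 and 174 bp.

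Elements at the start site itself were then read, irrespective of where the summit was. GAGA repeats were matched as GAGAGAG on either strand. They and the DRE were sought from -150 to +49 bp. The initiator (consensus TCANTN, its first N a keto base and its second a pyrimidine) was read on the strand of the gene and needed its A within 10 bp of the start site, and the TATA box, on the same strand, had to start at -45 to -15 bp. Start sites with the summit within 100 bp held a DRE in 17.0, 17.6 and 17.1% of cases in the replicates and those with the summit beyond 400 bp in 2.37, 0.633 and 1.07%. The difference was 15.9 points ± 1.20 (SD, n = 3). GAGA repeats had the opposite order, with 3.72, 4.32 and 2.38% in the nearest and 18.3, 21.5 and 20.9% in the farthest interval, a difference of -16.8 points ± 1.96.

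The initiator followed GAGA. It was present at 8.18, 8.75 and 5.08% of the nearest and 25.4, 25.3 and 26.7% of the farthest peaks' start sites, a difference of -18.5 points ± 2.76. The TATA box went the same way (-5.81 points ± 3.05), from 1.82% in the nearest to 8.57% in the farthest interval of the thresholded list. All 4 differences had 1 sign in the 3 replicates, with p = 0.25 by the exact sign-flip permutation test, the smallest it allows. They belong to 21 such contrasts, chosen after other values of these data were seen, so p-values carry little here. The same contrast for the E-box (Ohler 5, CAGCTG) was 1.01 points ± 2.41 (SD, n = 3), with mixed signs.

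Start sites with no peak gave 3.03% for the DRE, 5.35% for GAGA, 17.9% for the initiator and 11.1% for the TATA box. Over all 14910 single start sites these were 4.63, 6.64, 17.2 and 9.03%. For upstream peaks as a whole the initiator share was 16.4%, close to the no-peak value, but this value averages intervals far below and above it. The TATA box share was 3.80% over all upstream peaks, below the background in every interval.

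**Figure D4:**
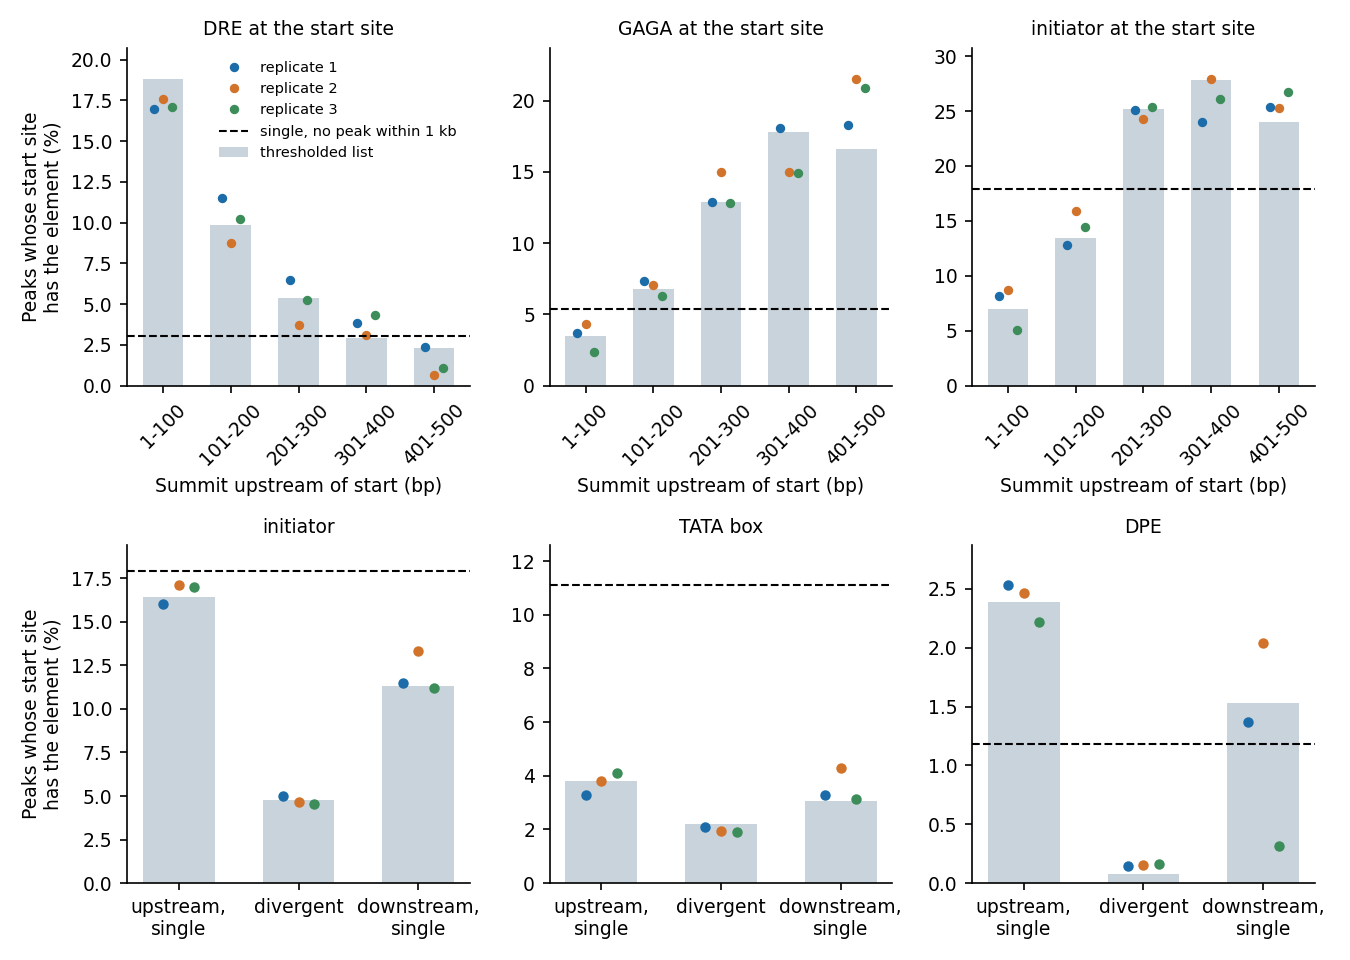
Top row, share of upstream peaks whose start site holds a DRE, GAGA or initiator (y axes, %), by distance of the summit from the start site (bp). Bottom row, initiator, TATA box and DPE at start sites of upstream, divergent and downstream peaks. Bars are the thresholded list, points the replicates and dashed lines the 10299 single start sites with no peak within 1 kb. DRE shares go down with distance, from 18.8 to 2.29%, while GAGA and initiator shares are higher beyond 200 bp than within 100 bp.

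The strongest upstream peaks stood apart in the DRE, GAGA and the initiator, but not in the TATA box. The upstream peaks were split by pooled rank into 5 groups of 511. The strongest group had a DRE at 3.13% of its start sites, GAGA at 17.4% and an initiator at 26.4%. The next group had 9, 9 and 15.7%, the middle one 13.7, 5.48 and 11.4%, and the weakest 12.3, 6.85 and 14.1%, so the 3 weaker groups were about level. In the replicates, ranked by their own signal, the difference between the strongest and the weakest group was -8.94 points ± 1.22 for the DRE, 10.8 ± 2.73 for GAGA and 11.3 ± 1.38 for the initiator (SD, n = 3; exact permutation p = 0.25 each). Each of these had 1 sign in all replicates. For the TATA box the difference was 0.235 points ± 0.946, with mixed signs. The median summit lay 216 bp upstream in the strongest and 126 bp in the weakest group, so the strongest group was also compared with all the others at a like distance. At 201 to 500 bp the 281 strongest peaks had a DRE at 1.42% of start sites against 5.12% of the 722 others, GAGA at 24.6% against 11.4% and an initiator at 34.2% against 22.6%. At 101 to 200 bp the DRE stood at 4.26% against 11.6% and the initiator at 19.1% against 11.6%. Within 100 bp, where only 42 peaks were of the strongest group, the DRE stood at 9.52% against 19.4%, while GAGA (4.76% against 3.43%) and the initiator (7.14% against 7.01%) were close. In the replicates the difference for GAGA was 15.7 points ± 2.04 at 201 to 500 bp and 0.256 ± 2.03 within 100 bp (SD, n = 3). Peaks found in all 3 replicates made up 98% of the strongest and 74.4% of the weakest group.

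The shares at start sites of upstream and of divergent peaks lay apart in every replicate. An initiator was present at 16, 17.1 and 17.0% of the former and 5.03, 4.68 and 4.52% of the latter, a difference of 12.0 points ± 0.842 (SD, n = 3). It was present at 11.5, 13.3 and 11.2% of downstream peaks' start sites, a difference of 4.70 points ± 1.00. The DPE (NGNCGTG, its first N a purine and its second a weak base, starting at +20 to +40 bp) was found at 2.40% of start sites of upstream and 0.157% of those of divergent peaks (means over replicates), and GAGA within 100 bp of the summit at 4.71% and 0.702%. The DRE was at 7.88% of upstream and 11.9% of divergent summits, a difference of -4.02 points ± 0.961. All of these had the same sign in each replicate, with p = 0.25 by the exact permutation test. For GAGA within 100 bp of the summit, downstream peaks gave 4.87% (mean over replicates), near the share of upstream peaks. No-peak windows at 164 bp gave 6.29%, above the 4.42% at the summits of upstream peaks in the thresholded list. The order was reversed at that fixed distance, where windows from the start sites of upstream peaks gave 8.19%. Divergent summits lay nearer to the start site, at a median of 85 bp, so the classes were also compared at a like distance. Within 100 bp the DRE was at 18.2% of upstream and 15.1% of divergent summits, and the replicate difference, 0.723 points ± 1.71, was smaller than its spread. At 101 to 200 bp it was -0.904 points ± 1.12, also within it. The initiator difference was 2.92 points ± 1.72 within 100 bp and 9.74 ± 1.91 at 101 to 200 bp, with 1 sign in all replicates in both. Against downstream peaks the DRE difference, 0.441 points ± 1.91, was smaller than the spread between replicates.

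For the 7-base sequence shown above in CG14100 and Ugalt, shares were compared between the strongest 200 upstream peaks and those below the strongest 511. It was held by 12 of the former and 10 of the 2044 latter. This was the highest ratio of shares among the 1273 sequences of 7 bases that at least 8 of the 200 held. The sequence was chosen for this ratio, so its values are a description. It was present within 100 bp of the summit in 5 of the 20 strongest upstream peaks (25%), in 7 of the next 180 (3.89%) and in 12 of the other 2355 (0.510%). Windows of start sites without a peak held it in 0.922% of cases. Ranked by their own signal, the 20 strongest upstream peaks of the replicates held it in 5, 5 and 4 cases. The 5 peaks of the pooled ranking were those of CG14100, Ugalt, px, CG1888 and CG31145, followed by elav, the gene of a neuronal RNA-binding protein (rank 78). At divergent promoters 2 of the 20 strongest peaks held it, and none of the 20 strongest distal ones, which lay over 2000 bp from a start site.

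Upstream peaks marked 2184 of the 10130 genes that have only single promoters (21.6%; replicates 21.0% ± 0.820, SD, n = 3), and this share is the background for the gene lists that follow. By replicate, 1531 genes were shared by all 3 and 2729 had an upstream peak in any. Counting genes whose other start sites are divergent, 2332 genes had 1. Genes with 1 start site had an upstream peak in 16.5% of cases and those with 4 or more in 58.7%. A gene counted when any of its start sites had a peak, so more start sites give more places to count. Of all single start sites, 16.3% had an upstream peak. Genes under 1 kb had one in 6% of cases, those of 10 to 30 kb in 39.7% and those over 30 kb in 34.5%. Of genes with 1 start site, 5.54% under 1 kb, 26.5% of 3 to 10 kb, 31.8% of 10 to 30 kb and 21.2% over 30 kb had one. The longest class thus fell below that of 3 to 10 kb there, while over all genes it was above it (34.5% against 30.5%). Genes with 1 exon had a share of 6.74% and those with more 24.0%. The arms differed little, from 20.6 to 21.8% on the large autosome arms and 24.0% on the X (replicates 23.2% ± 0.919, SD, n = 3).

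Cytosolic ribosome and cell cycle genes had the highest shares among lists of more than 20 such genes. Of 56 single-promoter genes of the cytosolic ribosome, 40 had an upstream peak (71.4%; replicates 69.6, 66.1 and 75%). Their summits lay a median of 90.5 bp from the start site. The best ranked were RpL23A (735, 654 and 701 in the replicates), RpL27A (1827, 2226 and 1563) and RpL11 (1939, 749 and 2256). Of 24 cell cycle genes 17 had one (70.8%; replicates 69.4% ± 4.81, SD, n = 3), led by the cyclin-dependent kinase inhibitor gene dap (2148, 3162 and 2774), the replication regulator gene E2f1 (2018, 2648 and 3690) and the mitotic kinase gene polo (2901, 2180 and 2710). For DNA replication it was 7 of 19 (36.8%). That list was led by RnrS, a ribonucleotide reductase subunit gene, at pooled rank 328, and Mcm2, a helicase subunit gene, at 607. The symbol pattern of the cell cycle list also took in Cdk8, CycH and CycY (with a peak) and CycT and CycK (without). The cell cycle share therefore does not describe core cell cycle genes alone.

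Other lists named for housekeeping functions had lower shares. The proteasome (5 of 24, 20.8%), mitochondrial import (4 of 14), the mitochondrial ribosome (6 of 20) and oxidative phosphorylation (15 of 47, 31.9%) were among them. Of these, mRpL41, Rpn11 of the proteasome lid (rank 1392) and RFeSP, the Rieske protein gene of complex III (rank 1985), ranked best. The symbol patterns also took in paralogues named with a T, R or L, such as Prosalpha3T, Rpt4R, COX4L and ND-20L. These named paralogues had no upstream peak, while UQCR-6.4L had one (rank 7259). All count in the totals, so the shares do not describe the core subunits alone. RNA polymerase II, general factors and Mediator had 10 of 24, led by Taf4 at rank 1631, and vesicle traffic 23 of 51, although replicate 3 gave 25.5% for the latter and replicates 1 and 2 gave 41.2% each.

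The smaller lists gave 9 of 26 genes for translation initiation, 6 of 13 for aminoacyl-tRNA synthetases, 5 of 11 for splicing, 7 of 15 for ubiquitin and the signalosome, 3 of 8 for autophagy, 4 of 5 for the peroxisome and 5 of 7 for the nuclear pore. These shares rest on few genes and moved with the replicate. For the nuclear pore they were 71.4, 57.1 and 28.6%. The best-ranked peaks were those of the translation initiation factor gene eIF6 (ranks 65, 51 and 50 in the replicates) and of the splicing factor gene Prp31 (ranks 730, 1006 and 627).

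Homeobox and signalling genes also stood above the background, and their median summit lay farther upstream than the 164 bp of all upstream peaks. Of 78 homeobox genes 45 had an upstream peak (57.7%; replicates 54.7% ± 5.18, SD, n = 3), at a median of 199.0 bp. They were led by NK7.1 (539, 369 and 480), the heart mesoderm gene tin (585, 390 and 634) and the eye gene so (935, 1540 and 1029). Genes of signalling pathways had one in 28 of 62 cases (45.2%; replicates 45.2% ± 4.27, SD, n = 3), at a median of 182.5 bp, with the Notch inhibitor gene numb at rank 179, the GSK3 kinase gene sgg at 218 and the EGF receptor inhibitor gene aos at 283. For bHLH factors it was 15 of 44 (34.1%; replicates 32.6% ± 4.73), a share like that of oxidative phosphorylation, at a median of 168.0 bp, led by E(spl)m3-HLH at ranks 74, 215 and 136.

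Chromatin genes also stood above the background. Polycomb and Trithorax genes had an upstream peak in 12 of 21 cases (57.1%; replicates 55.6% ± 2.75, SD, n = 3), among them ph-p at rank 13, the remodelling ATPase gene Iswi at 1245 and Su(z)2 at 2450. Insulator and core promoter factors had 6 of 12, with a median distance of 61.0 bp. The zinc finger gene lola ranked 454, BEAF-32, whose product binds the BEAF-32 site, 2037, and pita 3796, the last with a DRE within 100 bp of its summit.

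Genes of differentiated cells had few. In the list of neuronal channel and synapse genes, 8 of 99 had an upstream peak (8.08%; 7.07% in each replicate). The list was led by elav at ranks 57, 90 and 117, far above Nlg2, a neuroligin gene, at 1771 and comt at 2441. As elav encodes an RNA-binding protein, this share does not describe channel and synapse genes alone. The cytochrome P450 list had 6 of 79 (7.59%). Its symbol pattern also took in the cyclophilin genes Cyp1 (with a peak, rank 5931) and Cyp40 (without), so this share does not describe P450 genes alone. Glutathione transferases had 1 of 33 (GstD1 at 6400), cuticle genes 4 of 143 (2.80%) and chemosensory genes 3 of 208 (1.44%; replicates 1.44% ± 0.481, SD, n = 3). All 3 of the latter, Obp83g, Obp99b and Obp83cd, encode odorant-binding proteins. Neither 30 antimicrobial peptide genes nor 23 digestive protease genes had any, in the thresholded list or in a replicate. Genes known only by a CG number had one in 13.5% of 4807 cases. Gene length and the number of start sites were not held equal between lists, and their part in these counts was not tested.

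**Figure D5:**
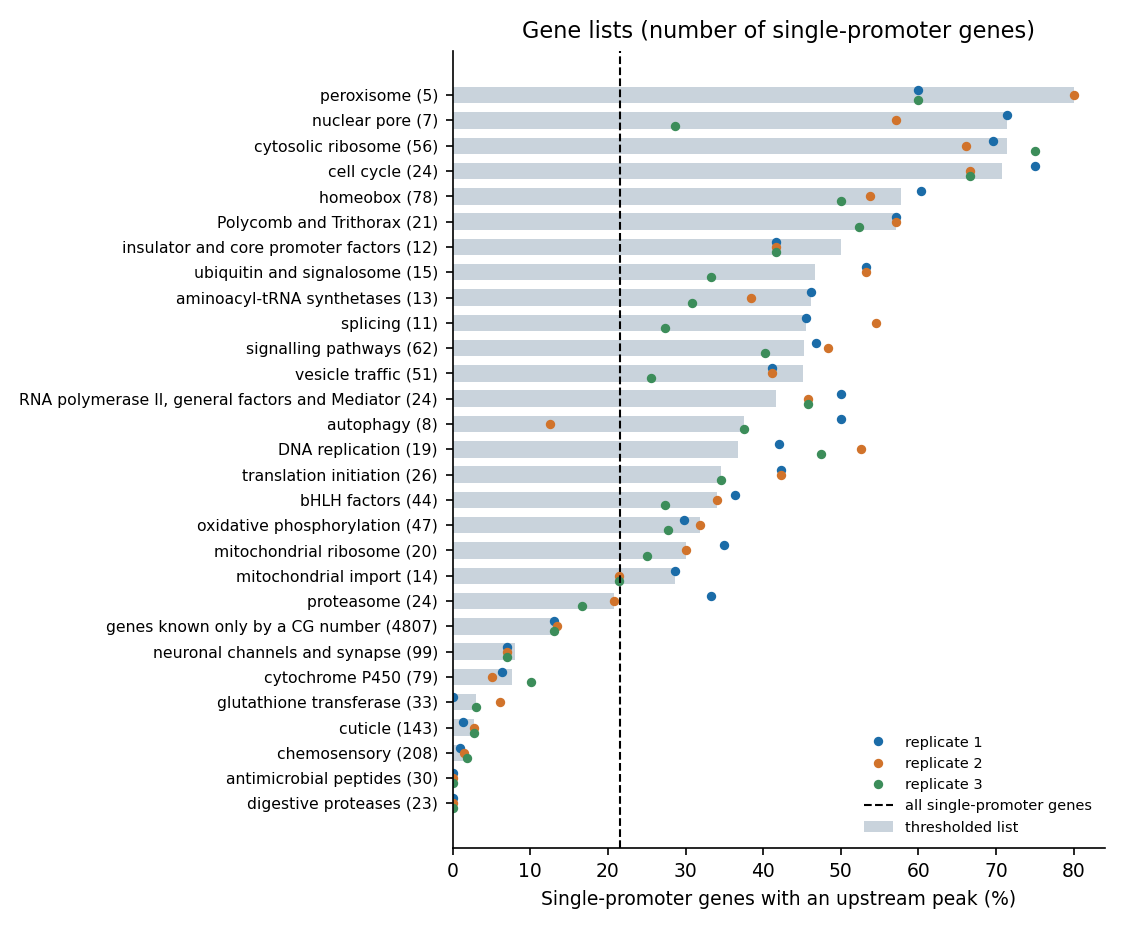
Share of single-promoter genes with an upstream peak (x axis, %) in each gene list, with the number of such genes in brackets. Bars are the thresholded list, points the replicates and the dashed line the 21.6% of all single-promoter genes. The cytosolic ribosome (71.4%), cell cycle (70.8%) and homeobox genes (57.7%) lie far above the line, and chemosensory (1.44%) and cuticle genes (2.80%) far below it.

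In 1564 single-promoter genes with start sites in groups over 500 bp apart, 658 had an upstream peak. The group farthest 5′ had one in 25.7% of genes and the other groups in 15.8%. Only 105 genes had upstream peaks at 2 or more groups, and 37 at every group. Of the 2555 summits, 1003 (39.3%) lay in intergenic sequence with the upstream neighbour on the same strand and 750 (29.4%) with it on the opposite strand. A further 623 (24.4%) lay within the gene's own annotated extent, upstream of an internal start site. Points 164 bp upstream of all 14910 single start sites fell in these places in 31.1, 22.6 and 28.7% of cases. Inside another gene lay 102 summits on the opposite strand (3.99%, against 7.61%) and 76 on the same strand (2.97%, against 9.91%).

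Exons held 160 of the summits (6.26%), and coding sequence 7 (0.274%). The limit of 500 bp did not separate the single promoters from all head-to-head arrangements. A head-to-head coding start site 501 to 1000 bp away was present for 405 upstream peaks (15.9%, against 11.4% of all single start sites). Of single start sites with such a neighbour 23.0% had an upstream peak, and of those with none within 1000 bp 15.4%. Non-coding start sites head to head within 500 bp were rare, at 77 peaks (3.01%, against 2.43%). Another thresholded summit lay within 1 kb of 639 upstream peaks (25%), and 124 start sites had 2 or more upstream peaks.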

How the data were processed

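ChIP-seq peaks of CoRest-eGFP in 3 biological replicates (1 group) were analysed from the deposited dm6 lists: 30000 peaks per replicate, a pooled list of 30000 and a thresholded list of 8721. The deposited signal of each peak is the authors' value, with no definition in the labels or headers. It therefore served to rank peaks of 1 list. Deposited −log10 q-value columns were not used, since 97.9% of the members shared the highest value. The summit offset was used as deposited by the authors, including 2 members whose summit lay outside their interval. The aligner, the peak caller and the IDR threshold were not given in the sources used here. All 8721 thresholded peaks were the 8721 strongest of the pooled list.

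Ensembl release 115 gave the start sites, and bases were read from RefSeq's copy of the Release 6 genome, whose arms hold every pooled peak, on arms 2L, 2R, 3L, 3R, 4 and X. Scripts used Python 3.11.15, NumPy 2.4.6, pandas 2.3.3, SciPy 1.17.1 and matplotlib 3.10.9. Replicates were classed by the same rule on their 8721 strongest peaks. Differences between peak classes and strata were compared within replicates by an exact 2-sided sign-flip permutation test. The classing of peaks and the motif search were checked on simulated data. The 22 motifs and 29 gene lists (by symbol pattern) gave counts with no set test. Not every gene taken in has the function that names its list. Examples are Mtpalpha under mitochondrial import and cnc under bHLH factors, both counted with a peak.

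The members, lists and tests were chosen with earlier results of these data known. The Ohler 6 consensus was corrected, and 1 motif renamed, before any motif was counted. Windows at the same distance, GC classes, elements at the start site, the contrasts between distance intervals and strength groups, the comparisons at a like distance, the 7-base sequence and the second DRE shown were added after values were seen. The text names the 20 strongest members found in all replicates, the 3 best-ranked of each list, those at the rule's limits, the 3 least even of the 1000 best ranks and the best-ranked holder of 4 elements. Other genes and all choices of emphasis followed their values. Alternatives varied the windows, the head-to-head limit, the gene types, the peaks used and the replicates.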

Additional observations from a re-analysis of the deposited data

How the results depend on the processing

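Of 64 alternatives to the 7 main values, 32 left the value about the same and 32 moved it. A value counted as the same when it differed by less than 1 SD between replicates, or for counts by at most 1.5 times. For the share found in all replicates, it had to stay within the exact 95% interval of 85.7 to 88.4%, which covers only counting error. With an upstream window of 250 bp the median distance was 118.0 bp, GC 36.3%, the DRE share 10.8%, the initiator share 12.6% and the share of single-promoter genes 16.7%. With 1000 bp these were 191.0 bp, 7.33% (DRE), 17.6% (initiator) and 23.6% (genes). With head-to-head start sites within 250 bp the median was 143.0 bp, the initiator share 13.8% and the gene share 24.4%, and within 1000 bp the latter pair were 17.8 and 20%. Start sites of all gene types gave a DRE share of 7.78%. The stronger part of the thresholded list gave a median of 186.0 bp, GC of 34.1%, a DRE share of 6.21%, an initiator share of 18.4% and 94.1% found in all replicates. That last share was 61.4% with summits within 50 bp, 94.5% within 250 bp and 68.1% with the strongest peaks of each replicate only. DRE windows of 50 and 150 bp on each side gave 4.89 and 10.1%, and an initiator within 50 bp of the start site 26.3%. Leaving out 1 replicate kept the same thresholded list and asked only that the other 2 held the peak. The share of genes was then 19.6 to 20.2%, and the share found in both others 89.4 to 91.6%. By construction the former cannot exceed 21.6% and the latter cannot fall below 87.1%. The causes of these moves were not tested, beyond the wider or narrower windows themselves.

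No paired analysis was possible because the samples form 1 group, so no 2 groups share replicate numbers. Peak classes were compared within each replicate. Limits are few replicates, unknown depth, peaks called against 1 control that was not analysed here, no untagged precipitation, and start sites taken from an annotation rather than measured in these embryos. Shares over peaks describe 1 genome, and peaks of neighbouring start sites are not independent.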

Other observations

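Below the authors' threshold, 2383 further peaks of the pooled list met the position rule, from pooled rank 8723 on. All 3 replicates held 705 of them (29.6%), and 491 single-promoter genes without an upstream peak had one of these.

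The 7-base sequence of the strongest upstream peaks was also found, beyond the 20 strongest, at amon (rank 230), which encodes a proprotein convertase, CG3009 (233), the heat shock gene Hsp27 (268), Adck1 (295), dnc (315), which encodes a cAMP phosphodiesterase, and Best2 (540). The other upstream peaks, from the 201st on, held it in 0.510% of cases, and start sites without a peak in 0.922%. The sequence was chosen for a higher share in the strongest than in the weaker upstream peaks. A low share in the weaker ones was thus part of the choice, and a depletion there was not tested.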
